A study of Mus musculus with 20 samples.

Results

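Autosomal gene expression was compared between the livers of 5 female and 5 male C57BL/6N (B6) mice, 10 of the 20 livers of the series. The livers were chosen by the strain and sex on their labels. All 10 mice were 20 weeks old, with no treatment named in the labels, came from 1 supplier, were housed singly and were killed in the course of a morning. The left lateral lobe was homogenized, and total RNA without ribosomal RNA was sequenced on the strand of origin in 3 pools. The other 10 livers, from 5 female and 5 male C3H/HeN (C3) mice of the same age, entered the same fit and are given only beside the B6 values. Each sex had a room of its own, and the effects of sex and of room cannot be told apart. The stage of the oestrous cycle is not given in the sources used here. Each replicate was a separate animal. Loci on X, on Y and on unplaced sequence were set aside, and cytochrome P450 genes were counted once and then left out.

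The liver is among the organs in which the sexes differ most outside the gonads. Much of this difference follows growth hormone, which males secrete in pulses and females more continuously, and which reaches hepatocyte genes through the growth hormone receptor and STAT5b. Sex-dependent repressors such as Bcl6 and Cux2 act in the same circuit, and sex steroids act through their own receptors. The genes under this control make plasma proteins, carry steroids and pheromones, take up organic ions, and handle lipids, bile acids and foreign compounds.

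Libraries of the 10 livers held between 28933836 and 46835745 counts, so that 3 counts corresponded to between 0.0641 and 0.104 CPM, the count scaled to the size of the library. The labelled sexes matched their marker transcripts, with 12349 to 21242 counts of Xist in females against 2 to 10 in males, and 0 or 1 count of Ddx3y in females against 2340 to 4198 in males. The labelled tissue matched as well. The 19 genes of a hepatocyte identity list summed to between 151000 and 188100 CPM in females and between 134200 and 167600 CPM in males. None of them was called by edgeR or DESeq2, with 4 at an adjusted p under 0.05 in each direction in edgeR's test.

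Of 13259 autosomal genes tested, 413 were higher in females, which is 3.11% of the genes tested, and 416 were higher in males, which is 3.14%. A gene was called when its adjusted p in edgeR's quasi-likelihood test, with sequencing pool as a covariate, was under 0.001 and its log2 fold change was beyond 0.5. The P450 family gave 18 of the female and 12 of the male calls among its 76 genes tested. Outside the family, 395 genes were higher in females and 404 in males, and the change was over 4-fold for 60 and 89 of them. Females had 49.8% of the calls with TMM normalization and 63.2% with upper-quartile normalization, which moved the median log2 fold change by 0.066. Without the pool covariate 402 genes were called. In 627 of the 829 called genes the livers of the sexes did not overlap, and over all genes tested this held for 10.8%. By a rule given with the methods 110 genes were named, of which 104 were called. These were picked by their change in the same libraries, which largely fixes that all 104 had the same sign in each of the 3 pools. Pool 2 held 1 female and 1 male liver. Within pools 1, 2 and 3 the difference of 17, 79 and 31 of the 110 genes was away from the fitted value by more than the SD of the 3 pools.

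The genes were grouped into 29 lists of liver function, which together held 178 called genes, and into 15 lists of other cell types and states. The lists differed in direction and in extent. Over all autosomal genes tested 3.11% were higher in females and 3.14% in males, and a list near these shares gives no result about its function. An adjusted p under 0.05 in edgeR's test was far more common, with 2117 of the 13259 genes in the female and 2451 in the male direction. Counts at that threshold in single lists are to be read beside these numbers. Odorant and pheromone carriers were called only in the male direction, with 16 of 22 genes tested. None had a female-direction adjusted p under 0.05 in edgeR's test or was called in that direction by DESeq2. Sulfotransferases were called only in the female direction, with 8 of 16. Flavin monooxygenases, oxidases and hydrolases moved both ways, with 7 higher in females and 12 in males among 27. In the urea cycle list none of 15 genes passed, with 2 at an adjusted p under 0.05 in each direction in edgeR's test. DESeq2 called 1, in the female direction.

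**Figure D1:**
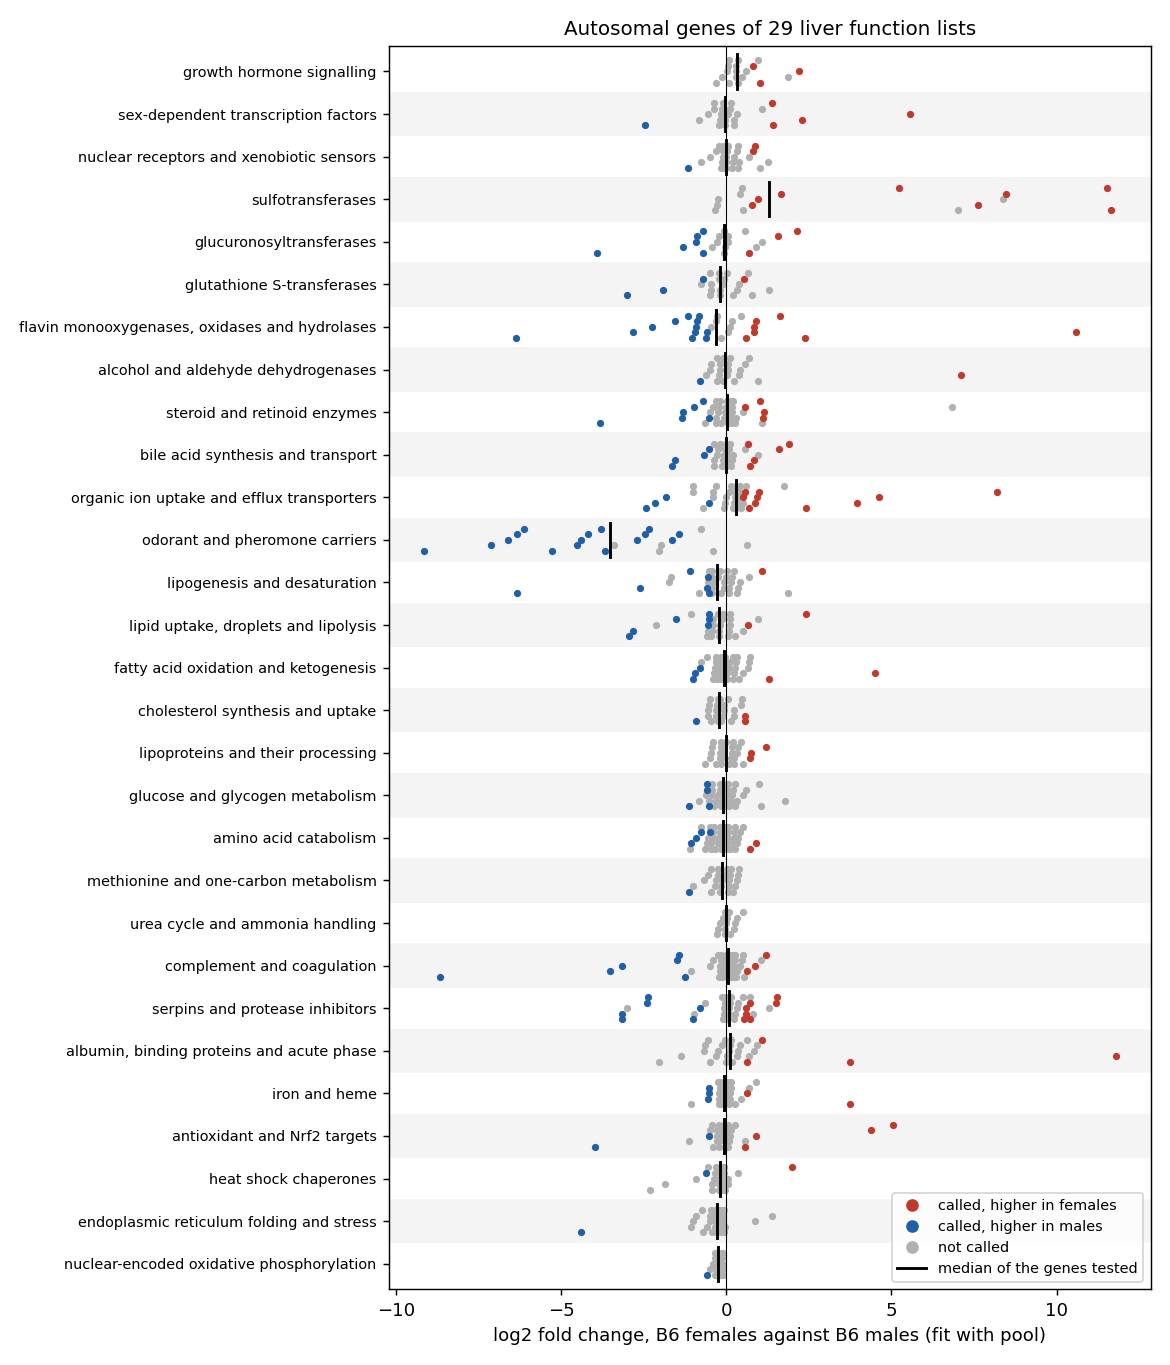
Log2 fold change of each autosomal gene tested in 29 liver function lists, B6 females against B6 males (x axis; above 0, higher in females), with red points for genes called higher in females, blue points for genes called higher in males, grey points for genes not called and a black bar at the median of each list. The median of the odorant and pheromone carriers lies at -3.53 and that of the sulfotransferases at 1.31, while most other medians lie close to 0; the point near -9 in the complement list is Cfd, whose fitted value depends on the prior count because no female liver had a count.

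The growth hormone axis was described from its receptors to its nuclear factors. Prlr, the prolactin receptor, was measured at 429, 389, 403, 741 and 621 CPM in the female livers and at 113, 150, 59.8, 114 and 119 CPM in the male livers. Every female liver was above every male liver, and the log2 fold change was 2.21 ± 0.16 (SE, adjusted p = 1.1e-08). Ghr, the growth hormone receptor, went the other way by a small amount, with 565 to 632 CPM in females and 717 to 817 CPM in males. Its log2 fold change of -0.32 ± 0.05 had an adjusted p of 1.81e-04 but stayed under the fold threshold, so it was not called. Igf1, the secreted growth factor that hepatocytes make under growth hormone, had 844, 687, 649, 1011 and 856 CPM in females and 483, 731, 487, 516 and 716 CPM in males. Its groups overlapped, and the difference of 0.48 ± 0.10 gave an adjusted p of 0.00123, so that both thresholds were missed. Upper-quartile normalization (0.54), the limma fit of TPM values (0.59) and leaving out female replicate 3 (0.53, adjusted p = 6.76e-04) each took Igf1 past both.

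Stat5b, the factor that carries the signal to the nucleus, was 1.27-fold higher in females with overlapping livers (log2 0.34 ± 0.12, adjusted p = 0.0292). Socs2, an inhibitor of the pathway and one of its fast targets, varied widely within each sex. It had 67.7, 42.2, 2.73, 25.02 and 25.06 CPM in females and 1.86, 38.9, 6.20, 3.63 and 1.96 CPM in males. Female replicate 3 lay among the low males and male replicate 2 among the females, and the log2 difference of 1.86 ± 0.77 was not called (adjusted p = 0.0694). In the list of growth hormone signalling 3 of 18 genes were higher in females and none in males by edgeR or DESeq2, with 1 male-direction gene, Ghr, at an adjusted p under 0.05 in edgeR's test. Beside Prlr these were Lepr, the leptin receptor (1.03 ± 0.19, adjusted p = 3.95e-04), and Igfals, which binds IGF1 in plasma (0.81). Lepr lost its call without any single liver except female replicate 1 and male replicate 5, with an adjusted p of at most 0.00196.

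Of 23 transcription factors listed for sex-dependent roles in liver, 5 were called and 18 were not, with a median log2 fold change of -0.034. Cux2, a homeobox repressor of male-biased genes, was measured at 18.9, 15.0, 4.55, 17.3 and 7.36 CPM in females and at 0.257, 0.153, 0.318, 0.469 and 0.0921 CPM in males. No livers overlapped, although female replicates 3 and 5 were well under the other three, and the log2 fold change was 5.56 ± 0.52 (adjusted p = 2.33e-07), with differences of 6.02, 3.89 and 5.26 within pools 1, 2 and 3 (log2 CPM with a prior count of 2). Female replicate 3 was the only female library of pool 2 and the smallest of the 10, and the part of depth in its values was not tested. Trim24, a cofactor of nuclear receptors, stood at 46.5 to 100 CPM in females and 11.5 to 18.9 CPM in males (2.30 ± 0.21, adjusted p = 1.32e-07). Esr1, the oestrogen receptor of liver, stood at 39.1 to 60.9 CPM against 14.6 to 22.0 CPM (1.39 ± 0.12). Tox, a chromatin-associated factor, stood at 6.00 to 10.3 CPM against 1.67 to 4.01 CPM (1.40 ± 0.15).

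Bcl6, a repressor of female-biased genes, was the only factor of this list that was higher in males, and 4 of its 23 genes were higher in females. The female livers had 2.87, 5.99, 23.0, 14.04 and 6.46 CPM, and the male livers had 72.5, 36.4, 24.9, 61.8 and 71.7 CPM. The groups met closely at female replicate 3 and male replicate 3. The log2 fold change was -2.44 ± 0.48 with an adjusted p of 7.12e-04, which rose to at most 0.00328 and lost the call when female replicate 1, 2, 4 or 5 or male replicate 1, 4 or 5 was left out. Within pools 1, 2 and 3 the difference was -2.42, -1.65 and -3.22. Onecut1, another hepatocyte factor, ranged from 1.15 to 23.5 CPM in females and from 1.85 to 44.7 CPM in males and showed no direction (0.05 ± 0.62, adjusted p = 0.964). Its sign turned in some alternatives, to -0.37 without the pool covariate.

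Promoters of the called genes were searched for the letters TTCNNNGAA, the palindromic core that STAT5 proteins are known to bind, in the 250 bases before and 50 bases after each start given by RefSeq. The promoter table held 307 of the 413 genes higher in females and 321 of 415 gene identifiers higher in males. The letters stood in 9.45% of the former, 7.79% of the latter and 8.49% of the 10465 autosomal genes tested with a promoter. A share near the background is a description of these windows only. A match was held by 9 of the 89 named genes that have a promoter in RefSeq's list. Upstream stretches of 4 of them are shown because they span the roles described here, a repressor, a receptor, a transporter and a secreted hormone, from GRCm38.p6 with the match in capitals. The Bcl6 stretch lies at chr16:23981284-23981533 on the minus strand and holds 3 matches. The others hold 1 each, Prlr at chr15:10223656-10223905 on the plus strand, Slc22a26 at chr19:7802668-7802917 on the minus strand and Hamp2 at chr7:30924182-30924431 on the minus strand.
Bcl6: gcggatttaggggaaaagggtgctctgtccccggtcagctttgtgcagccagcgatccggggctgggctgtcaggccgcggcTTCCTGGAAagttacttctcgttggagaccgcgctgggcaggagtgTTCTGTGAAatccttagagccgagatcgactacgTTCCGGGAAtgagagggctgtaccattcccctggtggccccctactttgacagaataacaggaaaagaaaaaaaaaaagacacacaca
Prlr: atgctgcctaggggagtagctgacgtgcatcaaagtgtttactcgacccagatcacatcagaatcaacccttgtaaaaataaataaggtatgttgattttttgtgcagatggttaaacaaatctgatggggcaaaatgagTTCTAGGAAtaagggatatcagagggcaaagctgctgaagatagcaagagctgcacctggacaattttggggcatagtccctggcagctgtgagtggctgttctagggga
Slc22a26: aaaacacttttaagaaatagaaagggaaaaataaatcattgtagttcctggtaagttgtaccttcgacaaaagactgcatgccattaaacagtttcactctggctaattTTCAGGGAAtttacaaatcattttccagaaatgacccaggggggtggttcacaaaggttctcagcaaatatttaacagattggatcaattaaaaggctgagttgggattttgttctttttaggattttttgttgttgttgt
Hamp2: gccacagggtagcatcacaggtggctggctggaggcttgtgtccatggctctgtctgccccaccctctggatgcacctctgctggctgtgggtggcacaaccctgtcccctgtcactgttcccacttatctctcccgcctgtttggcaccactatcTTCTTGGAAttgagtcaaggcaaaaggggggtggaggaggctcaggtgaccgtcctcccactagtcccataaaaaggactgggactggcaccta

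Of 32 genes listed as nuclear receptors and sensors of foreign compounds, 2 were higher in females (6.25%, against 3.11% of all genes) and 1 was higher in males (3.12%, against 3.14%). Adjusted p values were under 0.05 for 13 of the 32 in edgeR's test, and for 4568 of all 13259 autosomal genes. Among the 13, Nr1d1 (1.26 ± 0.33, adjusted p = 0.00649) and Rarb (1.01 ± 0.23, adjusted p = 0.00239) were not called. Rxrg, a retinoid X receptor, had 5.29 to 8.59 CPM in females and 1.71 to 6.44 CPM in males (0.87 ± 0.15, adjusted p = 3.19e-04), and its call was lost without male replicate 5 (adjusted p = 0.00145). Nr1d2, a repressor of the circadian clock, had 66.2 to 76.9 CPM in females and 28.7 to 47.8 CPM in males (0.82 ± 0.16, adjusted p = 6.04e-04). Its call held without male replicate 4 but was lost without any other liver, with adjusted p values up to 0.0027. Pparg, the receptor that drives lipid storage, had 7.51, 6.15, 15.0, 9.13 and 5.29 CPM in females and 18.9, 25.1, 15.0, 17.1 and 15.8 CPM in males. Only female replicate 3 reached the male values, and the log2 fold change was -1.15 ± 0.19 (adjusted p = 1.54e-04).

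Conjugating enzymes were grouped by family. Sulfotransferases, which add sulfate to steroids, bile acids and phenols, were higher in females for 8 of 16 genes and higher in males for none by edgeR or DESeq2. In the male direction 3 had an adjusted p under 0.05 in edgeR's test. Sult3a1 had 177 to 402 CPM in females and at most 0.148 CPM in males. Its neighbour Gm4794 had 14.5 to 41.3 CPM in females and a single read pair in the 5 males, a ratio of 5521 with a counting interval of 990.6 to 218100. The hydroxysteroid sulfotransferases Sult2a1 and Sult2a2 also had a single read pair in the 5 males, with ratios of 356.7 (counting interval 63.67 to 14120) and 629.8 (112.7 to 24910). Female livers spread from 0.272 to 5.13 CPM and from 0.245 to 6.96 CPM. Sult2a7 was higher in females by 5.24 on the log2 scale. Sult2a5 and Sult2a6, at 0 in males and at 0 to 2.93 and 0 to 1.43 CPM in females, were not called. Sult2a8 leaned to males (-0.34) and was not called. These sulfotransferases have near-identical copies whose reads the counting could split or drop. Papss2, which makes the sulfate donor, was higher by 0.95 and Sult1a1 by 0.78.

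Glucuronosyltransferases moved in both directions, with 3 of 20 higher in females and 6 in males. Ugt2b38 had 1.65, 2.07, 0.135, 0.623 and 2.40 CPM in females and 4.14, 22.2, 42.3, 6.71 and 34.9 CPM in males (-3.90 ± 0.54, adjusted p = 2.52e-05). Ugt2b1 had 294 to 503 CPM in females and 634 to 1333 CPM in males (-1.31 ± 0.10). Ugt2b37 went the other way in 3.67 to 30.4 CPM against 1.22 to 6.59 CPM (2.15 ± 0.39, adjusted p = 4.12e-04), and its call was lost without female replicate 2 or 5 or male replicate 1, 2 or 4 (adjusted p up to 0.0018). These 3 genes lie within 1 cluster on chromosome 5. Ugt1a9 was also higher in females (1.57 ± 0.19), but the Ugt1a loci share exons, and reads in overlapping loci were not counted. Ugdh, which makes the glucuronic acid donor, was lower in females by -0.70.

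Among glutathione S-transferases, which conjugate electrophiles, 3 of 22 were higher in males. Gstp1 had 83.9, 78.8, 46.7, 32.5 and 40.4 CPM in females and 236, 238, 884, 548 and 431 CPM in males (-3.01 ± 0.17, adjusted p = 2.6e-10). All males were above all females, and the males spread over a wider range. Its neighbour Gstp2 was lower in females as well (-1.90 ± 0.28), with 0.217 to 1.11 CPM against 1.09 to 3.43 CPM, and the reads of this near-identical pair may be split. Mgst1 was lower in females by -0.71. Gstt2 was the only gene of 22 higher in females (0.55 ± 0.09), which is 4.55% against 3.11% of all genes. Gstt2 fell to 0.49 and lost the call without male replicate 3.

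Flavin monooxygenases oxidize nitrogen and sulphur in drugs and amines. Fmo2 (2.39 ± 0.20), Fmo4 (1.63) and Fmo1 (0.83) were higher in females, and Fmo5 was higher in males (-1.14). Por, the reductase that feeds electrons to P450 enzymes, was higher in females by 0.83.

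Of 14 carboxylesterases tested, which cleave esters and amides, 7 were higher in males, 2 were higher in females and 5 were not called. Ces2b had 11 read pairs in all 5 females together, and 0.513, 12.03, 6.79, 0.444 and 3.31 CPM in males, a ratio of 84.6 with a counting interval of 47.1 to 170.2. Male replicates 1 and 4 were closest to the females. Ces4a was lower in females by -2.83 ± 0.39, Ces2c by -2.26 and Ces1e by -0.94, while Ces1c (0.90) and Ces1b (0.61) were higher in females. Both aldehyde oxidases of the list, Aox3 (-1.55) and Aox1 (-1.03), and both epoxide hydrolases, Ephx2 (-0.84) and Ephx1 (-0.57), were higher in males. In the list of alcohol and aldehyde dehydrogenases only Aldh3b3 passed in the female direction, with 1.65 to 2.43 CPM in females against 2 read pairs in all males, and only Aldh1a7 in the male direction (-0.79 ± 0.09), among 22 tested. That was 4.55% in each direction, near the 3.11% and 3.14% of all genes. Without female replicate 3 the male count of that list was 4, and it was 2 without female replicate 1 or male replicate 1 or 2.

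Steroid and retinoid enzymes gave 4 genes higher in females and 6 higher in males among 39. Hsd3b5, a hydroxysteroid dehydrogenase of the adult male liver, had 29.2, 12.6, 2.16, 23.9 and 46.7 CPM in females and 206, 271, 356, 293 and 329 CPM in males (-3.81 ± 0.46, adjusted p = 4.79e-06). Female replicate 3 was again the lowest liver. Hsd3b2 (-1.35 ± 0.12), Hsd3b3 (-0.98) and Srd5a1 (-1.30), the reductase that acts on testosterone, were also higher in males. Hsd17b6, which oxidizes androgens, had 192 to 330 CPM in females and 94.8 to 123 CPM in males (1.15 ± 0.14). Of vitamin A enzymes, those higher in females included Rdh9, a retinol dehydrogenase (1.12 ± 0.15), and Bco1, which cleaves carotene (0.58).

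Bile acid genes were called for 5 of 30 in the female and 4 in the male direction. A pair of uptake carriers that lie close together on chromosome 6 went opposite ways. Slco1a4 had 92.2, 193, 193, 137 and 124 CPM in females and 51.8, 29.2, 41.6, 53.4 and 29.8 CPM in males (1.89 ± 0.26, adjusted p = 2.93e-05). Slco1a1 had 311, 170, 83.1, 198 and 221 CPM in females and 387, 503, 781, 600 and 712 CPM in males (-1.63 ± 0.23, adjusted p = 3.38e-05). Neither gene's livers overlapped between the sexes. Scp2, a peroxisomal carrier and thiolase that shortens the bile acid side chain, had 1201 to 1713 CPM in females and 3454 to 5406 CPM in males (-1.55 ± 0.09, adjusted p = 6.05e-10). Abcb1a, an efflux pump of the canalicular membrane, was higher in females (1.59 ± 0.21), as were Abcg5, which exports sterols (0.83), and Klb, a co-receptor for endocrine fibroblast growth factors (0.67). The female count of this list was 3 without female replicate 1, 3 or 4 or male replicate 3.

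Transporters of organic ions held 10 genes higher in females and 4 higher in males among 39, and 3 anion carriers within 1 stretch of chromosome 19 (mm9) included both kinds. Slc22a26, at chr19:7856473-7877157, had 208, 196, 131, 245 and 183 CPM in females and 1.44, 0.826, 0.245, 0.642 and 0.245 CPM in males (8.19 ± 0.31, adjusted p = 5.5e-13). Slc22a27, at chr19:7938879-8040517, had 17.8 to 42.1 CPM in females and 0.196 to 2.28 CPM in males (4.62 ± 0.39). Slc22a28, at chr19:8136699-8206472, had 1.18 to 6.67 CPM in females and 11.4 to 34.0 CPM in males (-2.43 ± 0.24, adjusted p = 4.61e-07). The first 2 loci were higher in every female liver and the third was higher in every male liver. Slc17a8, known as a vesicular glutamate carrier, was lower in females (-2.16 ± 0.22), and so was Abcg2, an efflux pump (-1.81). Abcd2, which brings very long acyl chains into peroxisomes, was higher in females by 3.95 and Slc16a5, a monocarboxylate carrier, by 2.41.

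Odorant and pheromone carriers, mostly major urinary proteins that males release in urine, had a median log2 fold change of -3.53 over 22 genes tested. Their summed level was 3983, 3487, 2809, 2723 and 3159 CPM in females and 10510, 18250, 23940, 15700 and 22790 CPM in males. The lowest male liver was thus above the highest female liver by more than the whole female range. Mup20, the urinary protein known as darcin, fell from 5835 CPM on average in males to 82.2 CPM in females (-6.12), and Mup3 from 7355 to 2697 CPM (-1.44). Mup14 was at or under 1.69 CPM in females and at 216 to 585 CPM in males, at a locus that overlaps another. Obp2a, an odorant-binding lipocalin outside the urinary protein cluster, had 6 read pairs in all females and 1.33 to 13.2 CPM in males, a ratio of 179.8 with a counting interval of 82.3 to 491.2. The urinary protein genes are near-identical copies, so the split of reads between members is uncertain.

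The lipogenesis list had 6 of 36 genes higher in males and 1 in females. Elovl3, an elongase of very long fatty acids, had 11.2, 13.4, 8.83, 4.45 and 8.94 CPM in females and 534, 550, 1262, 689 and 750 CPM in males (-6.32 ± 0.35, adjusted p = 1.41e-10). Mogat1, which adds an acyl chain to monoacylglycerol, had 0.325 to 0.511 CPM in females and 1.42 to 3.76 CPM in males (-2.62 ± 0.30). Me1, which supplies NADPH, was lower in females by -1.10 and Agpat2 by -0.57, whereas Agpat9 was higher (1.08 ± 0.13). The summed level of the list was 6437 to 13560 CPM in females and 9267 to 28580 CPM in males, so the groups overlapped.

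In the list of lipid uptake, droplets and lipolysis 6 of 30 genes were higher in males, 2 were higher in females and 22 were not called. Cidec, which fuses lipid droplets, had 0.452, 0.462, 0.371, 0.163 and 0.163 CPM in females and 5.32, 3.52, 1.69, 1.73 and 1.53 CPM in males (-2.95 ± 0.38, adjusted p = 1.09e-05). Fitm1, which helps droplets form, had 3.31 to 11.4 CPM in females and 36.5 to 60.1 CPM in males (-2.81 ± 0.18). Plin4 (-1.53), Fitm2 (-0.55), Plin5 (-0.54) and Acsl1 (-0.53) were the other genes higher in males. Vldlr, a receptor for triglyceride-rich lipoproteins, was higher in females with 9.38, 9.89, 24.6, 8.86 and 7.03 CPM against 5.10, 1.04, 0.637, 4.22 and 0.736 CPM (2.41 ± 0.41, adjusted p = 2.18e-04). Female replicate 3 stood above the rest, and without it the adjusted p was 0.00153. Lipc, the hepatic lipase, was higher in females by 0.65 ± 0.06.

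Fatty acid oxidation genes were called in both directions. Acot3, a thioesterase that releases acyl chains from coenzyme A, had 96.7, 87.7, 41.2, 94.0 and 39.1 CPM in females and 7.50, 2.54, 0.612, 5.50 and 1.47 CPM in males (4.51 ± 0.49, adjusted p = 1.73e-06). Its neighbour Acot4 was higher in females as well (1.30 ± 0.15), with overlapping livers. Acaa1b, a thiolase (-0.99 ± 0.13), and Pex11a, which divides peroxisomes (-0.94 ± 0.10), were lower in females. Of the 42 genes of the list, 2 were called higher in females (4.76%, against 3.11% of all genes) and 3 higher in males (7.14%, against 3.14%).

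Of 27 genes of cholesterol synthesis and uptake 2 were higher in females (7.41%, against 3.11% of all genes) and 1 in males (3.7%, against 3.14%). Insig2, which holds back sterol synthesis, was lower in females (-0.90 ± 0.10), and Npc2 (0.56 ± 0.06) and Soat2 (0.56 ± 0.10) were higher. Npc2 was at 0.49 and lost the call without female replicate 4, and Soat2 lost it without female replicate 3 or 4 or male replicate 2, 3 or 5 (adjusted p up to 0.00194). Tm6sf2, which loads lipid onto very low density lipoprotein, had 31.5 to 48.1 CPM in females and 11.6 to 25.6 CPM in males (1.19 ± 0.14). Apom, which carries a signalling sphingolipid on high density lipoprotein, was higher in females by 0.74 ± 0.08. None of 29 lipoprotein genes was called higher in males by edgeR or DESeq2, with 6 at an adjusted p under 0.05 in that direction in edgeR's test.

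Glucose genes were called in the male direction only, 4 of 37, and 4 had a female-direction adjusted p under 0.05 in edgeR's test. DESeq2 called 1 gene in the female direction. Gbe1, which branches glycogen (-0.59 ± 0.09), Tkfc (-0.59) and Khk (-0.54), both of fructose use, were higher in males. Gbe1 moved to -0.49 without male replicate 4, and the male count of the list fell to 2 without female replicate 1 or 5 or male replicate 4 or 5.

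In amino acid catabolism 2 of 52 genes were higher in females (3.85%, against 3.11% of all genes) and 4 in males (7.69%, against 3.14%). A pair of enzymes that make or use glyoxylate went opposite ways. Agxt, which turns glyoxylate into glycine, had 304 to 470 CPM in females and 193 to 289 CPM in males (0.72 ± 0.08, adjusted p = 1.4e-06). Hao1, which makes glyoxylate, had 130 to 186 CPM in females and 239 to 422 CPM in males (-1.08 ± 0.09, adjusted p = 6.97e-08). Tdo2 (-0.76) and Aadat (-0.92 ± 0.14), both of tryptophan breakdown, were lower in females. Got1 was higher in females (0.91 ± 0.18, adjusted p = 9.14e-04), but every fit that left out 1 liver lost its call, with adjusted p up to 0.004. The male count of the list was 2 without female replicate 1, 2 or 5 and 7 without female replicate 3.

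Bhmt, which rebuilds methionine from homocysteine with betaine, was the only called gene among 25 of one-carbon metabolism (4%, against 3.14% of all genes), where DESeq2 called 4. It had 2859, 3202, 4015, 3097 and 2436 CPM in females and 7411, 7378, 6016, 7380 and 6046 CPM in males (-1.14 ± 0.13, adjusted p = 2.4e-06). The list held 3 male calls without female replicate 3 and 2 without male replicate 4. Cps1, the entry enzyme of the urea cycle, overlapped at 5375 to 7706 CPM in females and 5887 to 7717 CPM in males (-0.03 ± 0.10, adjusted p = 0.843), and its sign turned to 0.04 with upper-quartile normalization.

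**Figure D2:**
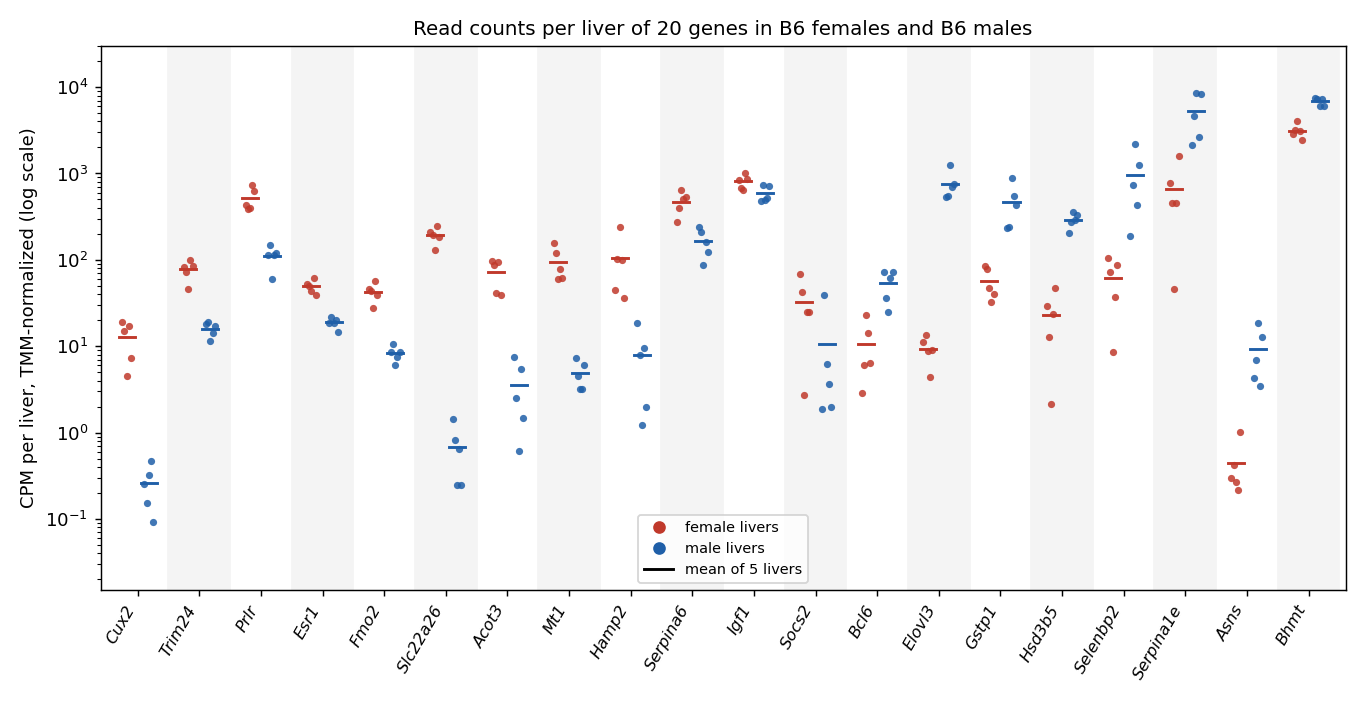
Normalized counts (CPM, log axis) of 20 genes in the 5 female (red) and 5 male (blue) B6 livers, with a short line at the mean of each group. Cux2, Slc22a26, Mt1, Elovl3 and Asns separate without overlap, while Socs2 and Igf1 overlap.

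Among plasma proteins of complement, Mbl2, a lectin that starts the cascade on microbial sugars, had 553, 551, 408, 424 and 373 CPM in females and 210, 146, 226, 280 and 162 CPM in males (1.20 ± 0.08, adjusted p = 1.3e-09). Complement C3, the central component, was higher in females by 0.87 ± 0.07, at a locus that overlaps another. Of the terminal components that form the membrane pore, C6 (-3.15), C8a (-1.50), C9 (-1.43) and C8b (-1.25) were higher in males, and C7 (-1.07), Hc, which encodes C5 (-0.39), and C8g (-0.19) were not called. Also higher in males was C4a (-3.50 ± 0.24), which had 2.77 to 4.08 CPM in females and 23.9 to 53.5 CPM in males. In all 3 genes were higher in females and 6 in males among 50, the third female gene being the clotting factor F7 (0.62).

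The sixth male gene was Cfd, the protease that activates the alternative pathway and is known from fat tissue. No female liver had a count, and the males had 3.65, 1.71, 0.563, 0.765 and 1.29 CPM, at least 20.8-fold higher against a floor of 3 counts per library. Cfd also stands in a list of adipose and pancreas markers, of whose 22 loci 12 had no count in any of the 10 livers and 5 were tested. The other called gene of that list was Car3, a carbonic anhydrase that hepatocytes also make (-1.08). The summed level of that list was 1855 to 4632 CPM in females and 5241 to 6553 CPM in males, of which Cfd was a very small part. Because the sum includes Car3, it cannot tell fat tissue from hepatocytes. The part of fat tissue in the Cfd difference was not tested.

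Serpins and other protease inhibitors were nearly even, with 7 higher in females and 6 in males among 35. Serpina6, which carries corticosterone in plasma, had 277, 394, 649, 509 and 529 CPM in females and 239, 208, 86.7, 160 and 122 CPM in males (1.52 ± 0.15, adjusted p = 6.48e-07). Serpinb8, an intracellular inhibitor, was higher in females by 1.52 ± 0.17, and Ahsg, or fetuin A, by 0.72. Serpina1e, an antitrypsin copy on the same chromosome as Serpina6, had 774, 453, 46.0, 456 and 1604 CPM in females and 2140, 4628, 8661, 2631 and 8333 CPM in males (-3.16 ± 0.60, adjusted p = 5.48e-04). The female range was wide, with replicate 3 lowest and replicate 5 close to the lowest male, and the call was lost without female replicate 1, 2 or 4 or male replicate 3 or 5 (adjusted p up to 0.00245). Serpina5 was lower in females by -3.15 ± 0.54 at under 2 CPM in all livers, and lost its call without female replicate 2 (adjusted p = 0.00116). Serpina12 (-2.40) and Serpine2 (-2.36) were also lower. The male count of this list was 3 without female replicate 2.

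Binding proteins and iron genes were led by Hamp2, a second hepcidin gene of the mouse. Hamp2 had 44.3, 102, 242, 101 and 36.1 CPM in females and 18.4, 7.99, 1.23, 9.53 and 1.99 CPM in males (3.74 ± 0.50, adjusted p = 1.69e-05). The highest male and the lowest female were separated by about the male range. A1bg, a plasma glycoprotein of the immunoglobulin family, had 659 to 2552 CPM in females and at most 1.40 CPM in males. Apcs, serum amyloid P, was higher in females by 1.09 and Afm, which carries vitamin E, by 0.64. No gene among the 27 of this list was called higher in males by edgeR or DESeq2. In that direction 5 had an adjusted p under 0.05 in edgeR's test, and 1 was called without female replicate 2 or 3 or male replicate 2 or 4. Slc40a1, the iron exporter, was higher in females (0.63 ± 0.09), and Cpox, of heme synthesis (-0.55 ± 0.06), Slc11a2, an iron importer (-0.53 ± 0.07), and Blvrb (-0.51) were higher in males. Leaving out male replicate 1 took Cpox to -0.49 and male replicate 3 took Slc11a2 to -0.50 and out of the calls, and the male count of the iron list was 1 without either of these 2 livers.

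Of 30 antioxidant genes 4 were higher in females (13.3%) and 2 in males (6.67%), against 3.11% and 3.14% of all genes. Mt1, a metallothionein that binds zinc, had 155, 120, 60.1, 78.1 and 60.9 CPM in females and 7.25, 4.50, 3.16, 3.23 and 6.04 CPM in males (4.37 ± 0.49, adjusted p = 2.31e-06). Mt2, next to it on chromosome 8, had 50.2, 13.8, 3.51, 5.50 and 1.498 CPM in females and 0.481, 0.184, 0.343, 0.666 and 0.184 CPM in males (5.05 ± 0.83, adjusted p = 1.49e-04). Both separated the sexes, and both were highest in female replicate 1. Mt2 lost its call without male replicate 3 (adjusted p = 0.00119). Selenbp2, a selenium-binding protein, had 106, 72.9, 8.60, 37.0 and 86.0 CPM in females and 188, 732, 2170, 430 and 1255 CPM in males (-3.98 ± 0.49, adjusted p = 7.06e-06). Nqo1, a quinone reductase, was higher in females by 0.90, and Prdx5, a peroxidase, was lower by -0.51 ± 0.05, which shrank to -0.48 at least and lost the call without female replicate 5 or male replicate 3 or 5. Without female replicate 5 or male replicate 5 the male count of the antioxidant list was 1.

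Fkbp5, a chaperone partner that glucocorticoids induce, had 69.1, 43.3, 24.7, 52.4 and 26.4 CPM in females and 8.75, 9.94, 12.3, 11.2 and 11.7 CPM in males (1.99 ± 0.26, adjusted p = 1.14e-05). In the list of immediate early and glucocorticoid-responsive genes the calls were Fkbp5, Mt1 and Mt2, 3 of 20, all in the female direction, and the summed level overlapped between the sexes, 821.1 to 1561 CPM against 639.7 to 1927 CPM. Among 30 heat shock chaperones only Fkbp5 and Hspb6, a small chaperone (-0.61 ± 0.08), were called. That was 3.33% in each direction, near the 3.11% and 3.14% of all genes. Estimates of 26 of the 30 chaperones were on the male side, with a median of -0.187 and a lowest value of -2.321. In C3 mice 1 of them was called higher in females and 10 in males. Asns, the asparagine synthetase that amino acid shortage induces, had 0.295, 0.422, 0.270, 0.217 and 1.01 CPM in females and 4.26, 6.85, 18.7, 3.48 and 12.7 CPM in males (-4.38 ± 0.46, adjusted p = 1.03e-06). Asns was the only called gene of 34 in the endoplasmic reticulum list (2.94%, against 3.14% of all genes). Estimates of 32 of the 34 were on the male side.

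Nuclear genes of oxidative phosphorylation leaned one way by a small amount. All 48 had estimates on the male side, with a median log2 fold change of -0.24, and 42 had an adjusted p under 0.05 in edgeR's test. Only Cycs, cytochrome c, was called (-0.57 ± 0.07, adjusted p = 4.96e-06), which is 2.08% of the list against 3.14% of all genes. A second gene was called without female replicate 1, 2 or 3 or male replicate 1 or 4. Over all autosomal genes tested the median was -5.19e-04.

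Several called genes belonged to no list. Eci3, a peroxisomal isomerase, had 1.58 to 7.52 CPM in females against 2 read pairs in the males, a ratio of 476.7 with a counting interval of 131.6 to 3941. Hao2, a hydroxy acid oxidase and a relative of Hao1, had 8.36, 5.31, 27.1, 32.0 and 2.02 CPM in females and at most 0.543 CPM in males (5.72 ± 0.76, adjusted p = 1.61e-05). Hao2 and Hao1 thus differed in opposite directions. Nipal1, a magnesium carrier, was higher in females by 4.91 ± 0.59, Fam19a2, a secreted peptide, by 4.46 ± 0.35, Tcf24 by 4.92 ± 0.44 and Rsph4a, known from cilia, by 5.00 ± 0.31. In males, Nat8f5, an acetyltransferase, had 14.6 to 29.8 CPM against at most 0.472 CPM in females (-7.52 ± 0.37, adjusted p = 3.37e-11), and its neighbour Nat8f6 had 0.543 to 0.980 CPM against 1 read pair in all females. Dkk4, a Wnt antagonist, was at least 3.87-fold and Cldn18, a tight junction protein, at least 4.10-fold higher in males, since no female had a count, and Cldn18 lost its call without female replicate 4 or 5 or male replicate 1, 2 or 5 (adjusted p up to 0.00132). Hcrtr2, an orexin receptor, was lower in females by -5.63 ± 0.47. Moxd1 differed within the males, with 0.160, 17.2, 123, 0.814 and 91.4 CPM, and had 2 read pairs in all females.

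Markers of other liver cells were summed for each liver. In bulk tissue fewer cells of a type and less RNA per cell cannot be told apart. All 16 sinusoidal endothelial markers had positive estimates, with a median of 0.33. None was called by edgeR or DESeq2, although 15 had an adjusted p under 0.05 in edgeR's test. Their summed level was 1058 to 1179 CPM in females and 845.1 to 946.1 CPM in males, without overlap. Stellate cell markers summed to 860.3 to 1010 CPM against 681.6 to 745.9 CPM, also without overlap. Of the 18, 1 was called (5.56%, against 3.11% of all genes), Lum (0.56 ± 0.09). Kupffer cell markers all had positive estimates, and 2 of 17 were called, Folr2 (0.60) and Slc40a1 (0.63). Their summed level was 1072, 1216, 861.1, 825.8 and 968 CPM in females and 659.8, 536.1, 849.6, 822 and 595 CPM in males, so that the groups overlapped slightly. Leaving out female replicate 2 or 5 or male replicate 1, 2, 3 or 5 left 1 Kupffer call. Of 12 cholangiocyte markers 5 had positive and 7 negative estimates, with a median of -0.046, and their summed level was 289 to 424.3 CPM in females and 348.1 to 481.1 CPM in males.

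Interferon-stimulated genes were called for 11 of 32 in the female direction by edgeR and for 17 by DESeq2. Neither tool called any in the male direction, where Oasl1 alone had an adjusted p under 0.05 in edgeR's test (-0.46). Gbp3, a guanylate-binding protein, had 22.5, 17.1, 19.01, 29.4 and 26.9 CPM in females and 7.57, 8.54, 7.18, 11.6 and 6.597 CPM in males (1.45 ± 0.21, adjusted p = 3.93e-05). Ifi44 (1.32), Xaf1 (1.18), Oas1a (0.98) and Irf1 (0.72) were also higher. The summed level of the list was 1385, 1148, 1134, 1549 and 1508 CPM in females and 877.5, 1093, 865.6, 1045 and 912.2 CPM in males, without overlap. The count depended on single livers: it was 3 without female replicate 1 or male replicate 5, 4 without male replicate 1 or 3, 6 without female replicate 4 and 7 without female replicate 3 or 5 or male replicate 2. The Kupffer and endothelial markers moved in the same direction, and their part in this difference was not tested.

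Neutrophil and lymphocyte transcripts were scarce. The neutrophil list summed to 14.45 to 20.39 CPM in females and 9.026 to 16.48 CPM in males, and Ly6g alone was called of 10 (1.01 ± 0.20, adjusted p = 9.34e-04), losing its call without any liver but female replicate 2 and male replicate 4 (adjusted p up to 0.00399). Cd4, a marker of helper T cells, went against the rest of the lymphocyte list with 0.629, 0.442, 1.11, 0.786 and 1.25 CPM in females and 2.47, 4.38, 2.69, 2.42 and 4.66 CPM in males (-1.995 ± 0.19, adjusted p = 2.46e-07), while 16 of the 17 genes had positive estimates. Among erythroid markers, of whose 19 loci 8 had no count, only Klf1 was called (0.66 ± 0.12, adjusted p = 5.53e-04). Klf1 lost the call without any liver but female replicate 5 and male replicate 4 (adjusted p up to 0.00249). The list leaned the other way, with 3 positive and 6 negative estimates among 9 genes tested and a median of -0.302. Its summed level was 21.91 to 49.44 CPM in females and 37.8 to 67.38 CPM in males. Sox9, a marker of bile duct cells, was lower in females (-1.42 ± 0.17), and no other of 12 cholangiocyte markers was called.

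Of 27 cell cycle genes 2 were higher in females (7.41%, against 3.11% of all genes) and 1 in males (3.7%, against 3.14%). Ccnd1, cyclin D1, had 97.6, 112, 43.0, 120 and 181 CPM in females and 24.5, 18.1, 18.4, 17.6 and 20.9 CPM in males (2.46 ± 0.25, adjusted p = 6.19e-07). E2f1, a factor of the next step of the cycle, was lower in females, with 1.39 to 1.84 CPM against 2.79 to 3.46 CPM (-1.01 ± 0.13). Of 23 clock genes only Nr1d2 was called (4.35%, against 3.11% of all genes). In edgeR's test 6 clock genes had a female-direction and 7 a male-direction adjusted p under 0.05. Estimates over the clock list ran from -1.153 to 1.691. Of 18 pericentral markers Slc13a3 (0.88 ± 0.13) was higher in females and Cpox was higher in males. That was 5.56% in each direction, against 3.11% and 3.14% of all genes. Of 19 periportal markers 2 were higher in females and 1 in males, with estimates from -1.42 (Sox9) to 3.74 (Hamp2), and their summed level was 91350 to 117600 CPM in females and 67590 to 91830 CPM in males, so that the groups overlapped slightly at their edges.

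**Figure D3:**
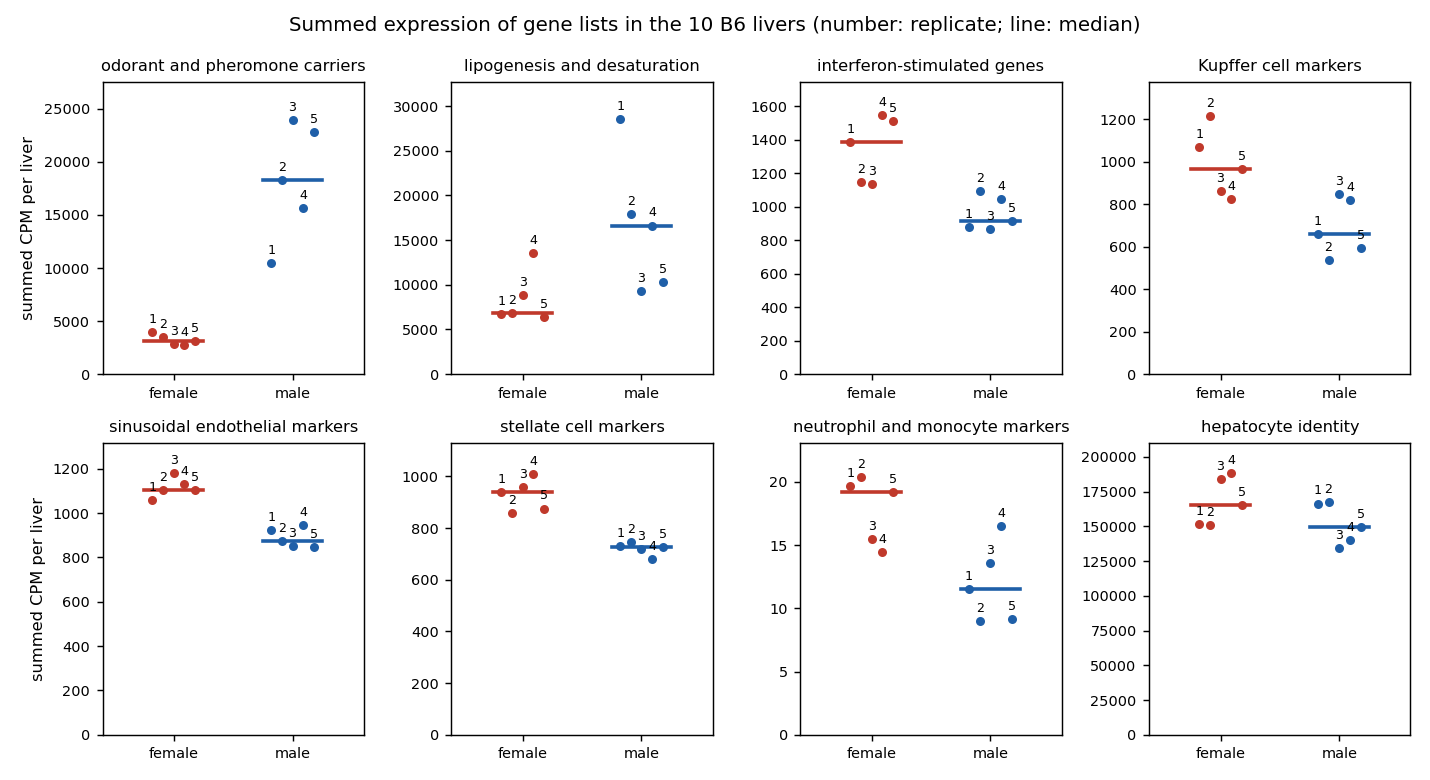
Summed CPM of 8 gene lists in each B6 liver (y axis, from 0), with the replicate number beside each point and a line at the median of each sex. Odorant carriers, interferon-stimulated genes, sinusoidal endothelial and stellate markers do not overlap between the sexes, while lipogenesis, Kupffer, neutrophil and hepatocyte identity sums do.

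The same sex comparison in C3 mice gave values for each gene from other animals in the same fit. Of the 799 called genes outside the P450 family 748 had the same sign in C3 mice and 394 were also called there in the same direction. The sex-by-strain test, with the same thresholds, passed for 31 of the 799 and for 52 of all 13259 autosomal genes tested. The 799 were picked by their B6 difference, which enters that test. No share over all genes is given beside the 748 and the 394, or beside the counts of named genes that follow. These counts therefore do not measure how far the strains agree. Among 110 named genes 104 were called in B6, of which 100 had the same sign and 68 were called in C3, and the sex-by-strain test passed for 2 of the 110.

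Those 2 were Tox and Mogat1. Tox was higher in females by 1.40 ± 0.15 in B6 and by 3.60 ± 0.19 in C3, a difference of -2.20 ± 0.24 (adjusted p = 2.92e-05). Mogat1 was lower in B6 females by -2.62 ± 0.30 and stood at 0.92 ± 0.44 in C3, a difference of -3.54 ± 0.53 (adjusted p = 8.01e-04). Among the lipid genes Cidec stood at -2.95 ± 0.38 and 0.08 ± 0.46 and Pparg at -1.15 ± 0.19 and 1.37 ± 0.45, and both missed the threshold of the sex-by-strain test (adjusted p = 0.00635 and 0.00544). Elovl3 differed by a similar amount in both strains, -6.32 ± 0.35 and -7.29 ± 0.37, and Fitm1 was called in both.
For the peroxisomal genes Acaa1b and Pex11a the B6 values of -0.99 ± 0.13 and -0.94 ± 0.10 stood beside C3 values of -0.06 ± 0.13 and -0.12 ± 0.10, and the sex-by-strain test was missed as well (adjusted p = 0.0059 and 0.00159). Over the 36 lipogenesis genes the median was -0.29 in B6 and 0.17 in C3, with 6 and 1 genes called higher in males. Over the 32 interferon-stimulated genes it was 0.68 and 0.45, with 11 and 4 genes called higher in females.

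**Figure D4:**
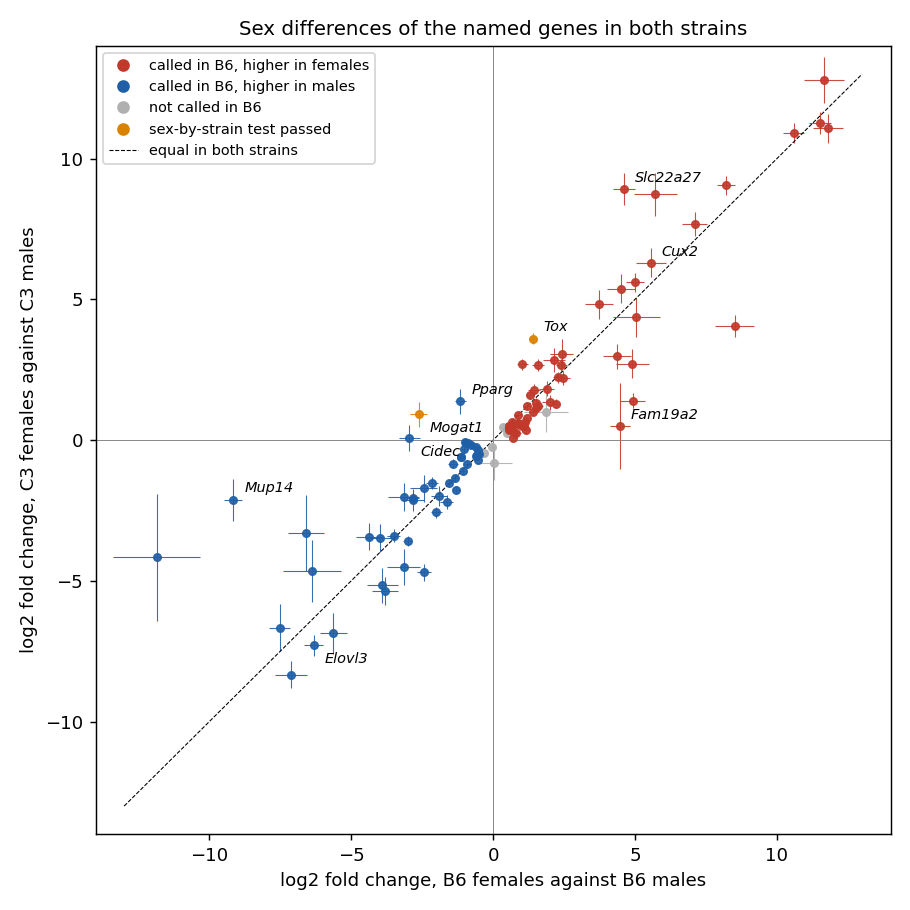
Log2 fold change of females against males in C3 (y axis) against that in B6 (x axis) for 107 named genes, with SE bars in both directions, leaving out 3 genes with no count in B6 females. Most points lie near the dashed line of equal values, and Tox and Mogat1, in orange, passed the sex-by-strain test.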

How the data were processed

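Total RNA libraries from 10 B6 and 10 C3 mouse livers were analysed. The authors deposited unnormalized counts, the number of read pairs on each gene. Read pairs with low mean quality were removed, adapters were trimmed with Cutadapt (v1.9.1), and reads were aligned to mm9 with STAR (v2.5.1b) and counted on RefSeq genes by strand with featureCounts of Subread (v1.5.0-p1), without multimapping or multi-overlapping pairs. The authors also deposited TPM values, whose gene length is not given in the sources used here, and these served for 1 alternative. The headers of the symbol and identifier columns are exchanged in the deposited tables, which were read by content. Repeated symbols were kept as separate loci.

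Counts were filtered with filterByExpr, normalized by TMM and fitted in edgeR (v4.0.16, R v4.3.3) by quasi-likelihood with terms for group and pool, all 20 libraries together. Calls needed an adjusted p (Benjamini-Hochberg, 13704 genes of all chromosomes) under 0.001 and a log2 fold change beyond 0.5, the thresholds of the study. CPM values are TMM-normalized, and CPM of different genes are not comparable, since they are not divided by length. A ± is the SE of the log2 fold change, with 5 livers per sex. Where all livers of a sex had at most 3 counts, ratios of summed counts are given with exact 95% intervals, or lower bounds against 3 counts per library where all were at 0. They cover only the counting error of reads summed over the livers of a sex. Variation between livers is left out, and PCR copies are not independent molecules. B6 replicate pairs differed beyond sampling noise (chi-square per degree of freedom 29.4 to 189).

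Members and gene lists were chosen with earlier results of these data known. Named genes were 11 genes of the growth hormone axis, the 2 called genes of largest change per direction in each function list and 1 in each other list, 6 per direction in no list whose livers did not overlap, and the most abundant member of a function list without calls, 110 in all. Other genes named were chosen after their values were seen. Of the typed list symbols, 8 matched no locus and 9 loci off the autosomes were dropped. Lists overlap in some members. In simulated data of this design, 153 of 200 changed genes among 13704 were called, with 0 false calls. Alternatives used RLE and upper-quartile scaling, DESeq2 (v1.42.0) with and without a prior on fold changes, limma (v3.58.1) on log2 of TPM plus 1, other filters, covariates, libraries and thresholds, a replicate block, and each liver left out. Promoter sequences are from RefSeq (GRCm38.p6). A few genes of the lists, and their values, are not reported here.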

Additional observations from a re-analysis of the deposited data

Results flagged for a closer look

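Sex differences of 2 named genes differed between the strains by the sex-by-strain test. For Tox the B6 difference was lower than the C3 difference by -2.20 ± 0.24 on the log2 scale (adjusted p = 2.92e-05 in edgeR's test), with females higher in both. For Mogat1 it was lower by -3.54 ± 0.53 (adjusted p = 8.01e-04), with a call in B6 only.

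In 6 of 220 groups of 5 livers 1 liver stood apart by Dixon's test, and chance flags about 1 in 20 groups. Nr1d2 reached 76.9 CPM in female replicate 5, against 66.2 to 68.8 in the other females. Vldlr reached 24.6 CPM in female replicate 3, against 7.03 to 9.89 in the others. Soat2 was at 24.3 CPM in female replicate 5, against 32.3 to 33.7. The other 3 groups held reads in a single liver. These were Gm4794 at 0.0306 CPM in male replicate 2, Moxd1 at 0.0402 CPM in female replicate 2 and Nat8f6 at 0.0337 CPM in female replicate 3, each against 0 in the other livers of that sex.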

How the results depend on the processing

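The total of 829 calls was within 1.5 times under RLE and upper-quartile scaling, both DESeq2 fits, limma, no filter, B6 libraries alone and the replicate block. It was 402 without the pool covariate (192 higher in females, 210 in males), 4568 at an adjusted p under 0.05 without a fold minimum (2117 and 2451) and 282 when the fold itself was tested against 0.5 (123 and 159). B6 libraries alone gave 573 calls, with 259 higher in females. Limma on TPM gave 252 higher in males and put 68.1% of its calls on the female side. In the function lists 178 calls became 106 without the pool covariate, 482 at an adjusted p under 0.05 and 90 with the fold tested against 0.5. Of 104 named calls 66 passed without the pool covariate. Leaving out each liver gave 663 to 804 calls, 303 to 403 higher in females and 358 to 408 in males, 163 to 178 in function lists and 93 to 99 named.

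Same-numbered livers shared only a number, with correlations of -0.043 to 0.322 after removal of pool. A replicate block gave 811 calls, of which 755 were among the 829, and Ugt2b37, Klf1 and Dkk4 lost their calls. The sex-by-strain count of 2 named genes became 4 with this block, 14 with DESeq2 and 1 without the pool covariate. The sign turned for 2 uncalled genes. Onecut1 was at -0.093 with a prior on fold changes and -0.37 without pool, and between -0.224 and 1.042 when livers were left out. Cps1 was at 0.036 with upper-quartile scaling, 0.078 with limma and between -0.13 and 0.025 when livers were left out. The cause of these shifts was not tested. Depth limits genes under about 0.1 CPM, which cannot be told from 0.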
